A study of Drosophila melanogaster with 13 samples.

Results

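The subunits of the oxidative phosphorylation machinery were followed at the transcript level in neural clones of the *Drosophila* optic lobe, the brain region that processes vision. Members were taken by gene symbol: symbols starting with ND-, with COX and a digit, with ATPsyn or with UQCR-, together with SdhA, SdhB, SdhC, SdhD, blw, levy, RFeSP, Cyt-c1 and Cyt-c-p. This gave 92 of the 17633 genes in the count table: 40 of complex I, 4 of complex II, 11 of complex III, 1 cytochrome c, 20 of complex IV and 16 of ATP synthase. Counts were high enough to test 66 of them. The rule itself used no expression value, but the members were chosen with earlier results of these data known.

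In oxidative phosphorylation, complex I and complex II take electrons from NADH and succinate, and complex III passes them through cytochrome c to complex IV, which reduces oxygen. Complexes I, III and IV pump protons across the inner mitochondrial membrane, and ATP synthase lets protons flow back to make ATP. Most subunits are encoded in the nucleus, a few in the mitochondrial genome. In fly neural tissue, both dividing neuroblasts and neurons use this pathway, and in neuroblasts it has been linked to proliferation and to the switch of temporal identity.

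RNA was counted in 3 groups of 3 libraries, all from optic lobe clones of wandering L3 larvae: WT clones, clones mutant for lola (allele lola[E76]) and clones mutant for nerfin-1 (allele nerfin-1[159]). Both genes encode zinc-finger transcription factors known to hold neurons in their differentiated state. Cells were isolated by flow cytometry, and each sample pooled sorts of several days to between 33000 and 105000 cells. The labels name no separate animals or clones, so the p-values reflect the spread among pools, which may be technical. The column names of the table give the recombination site 42D for WT and lola[E76] libraries and 2A for nerfin-1[159], so the WT libraries share their site with the lola[E76] clones and not with the nerfin-1[159] clones. A second assay, Targeted DamID, mapped where the Lola.N isoform fused to a DNA methylase touched the genome in ey16F10-GAL4 cells of the L3 brain, with 2 replicates.

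The libraries held 3465601 to 5200223 counts, and the 92 members took 0.715% to 0.927% of them. QuantSeq reads 1 tag at the 3′ side of a transcript, so levels are given in CPM (counts scaled to an effective library size of 1e+06) and were not divided by gene length. A total of 3 counts corresponded to 0.569 to 0.849 CPM. The targeted gene nerfin-1 was at 9.10 ± 8.38 CPM in its own mutant clones, where WT had 284 ± 25.8 CPM and lola[E76] had 139 ± 15.0 CPM (SD, n = 3 each). Tags of lola were at 1984 ± 222 CPM in lola[E76] clones, where WT had 1763 ± 173 CPM and nerfin-1[159] had 2565 ± 117 CPM. The labels do not give the lesion of lola[E76], so a 3′ tag does not check it. The neuronal marker elav was at 1962 CPM or more in every library, and lola[E76] replicate 1 stood apart from the other lola[E76] libraries on the third principal component.

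Levels differed more between complexes than between genotypes. ATP synthase subunits had a median of 160 CPM over the 9 libraries and complex IV subunits 197 CPM, against 116 CPM for complex III, 54.9 CPM for complex I and 51.9 CPM for complex II (tested members, without the paralogue ATPsynepsilonL). The most abundant member was ATPsynC, which forms the rotating ring of ATP synthase in the membrane. It was at 795, 1016 and 999 CPM in WT, at 1137, 1034 and 1137 CPM in lola[E76] and at 949, 1023 and 1037 CPM in nerfin-1[159] clones, and alone made up 11.9% of the summed CPM of the members in WT. The next in ATP synthase was blw, the alpha subunit of the catalytic head, at 481, 539 and 567 CPM in lola[E76] libraries, where WT had 397, 471 and 375 CPM and nerfin-1[159] had 511, 449 and 461 CPM. For both genes all lola[E76] libraries lay above all WT libraries, although neither passed the test reported further on. ATPsynE was the lowest of the tested subunits here at 96.8 CPM, a 10.5-fold range.

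Complex I had the widest range. ND-AGGG, a small accessory subunit of the membrane arm, was highest at 281.2 CPM on average, and ND-MWFE, another accessory subunit, lowest at 10.2 CPM, 27.6-fold less. The 7 nuclear-encoded core subunits of complex I, which carry the electrons from NADH and are conserved from bacteria, ranged from 23.1 to 92.5 CPM. Their median was 66.7 CPM, and the 25 accessory subunits had a median of 52.1 CPM. Complex IV was the most even, from COX6B at 325.7 CPM to COX7B at 109 CPM, a range of 2.99-fold. In complex III the range was 4.05-fold, from UQCR-11 at 199 CPM to UQCR-C2 at 49.2 CPM, and in complex II it was 5.99-fold, from the membrane anchor SdhC at 81.8 CPM to the iron-sulphur subunit SdhB at 13.7 CPM. Cytochrome c itself, encoded by Cyt-c-p, was at 69.5 CPM. The members varied little between libraries of a genotype: the median SD of log2 CPM within genotypes was 0.181 for the 66 tested members and 0.398 for all 7451 tested genes. The members were also more abundant, with a median of 80.9 CPM against 18.2 CPM, and the part of depth in this spread was not tested.

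**Figure D1:**
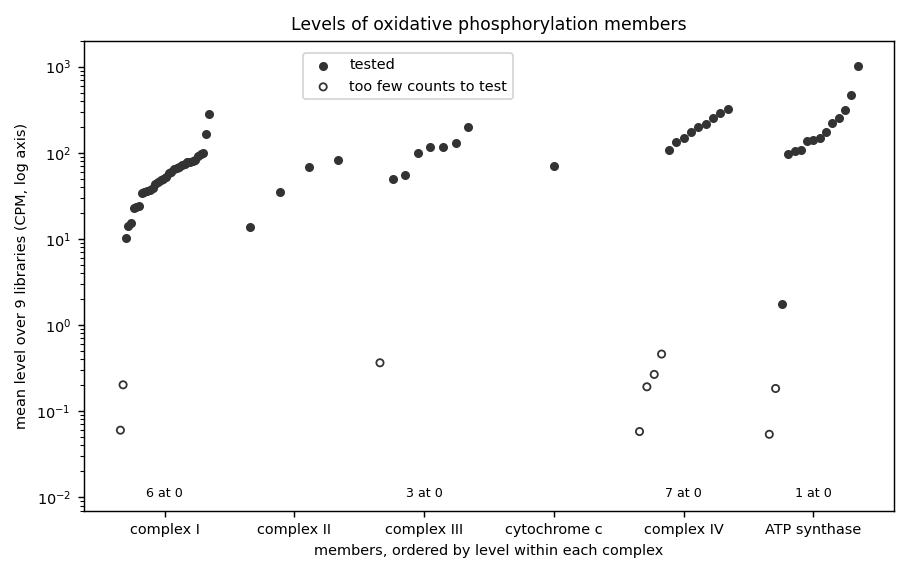
Mean level of each member over the 9 libraries in CPM on a log axis, ordered by level within each complex; filled points were tested, open points had too few counts, and the text at the bottom counts members with no read in any library. ATP synthase and complex IV members sat highest, with medians of 160 and 197 CPM, and the open points lay below the tested members of their complex.

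The 26 members that could not be tested were nearly silent or not counted. Of the 21 members that are paralogues of another subunit by name (an L added to the symbol, as in COX7CL), 20 were among them. *Drosophila* carries second copies of many of these genes, and several are known for use in the testis. COX7CL had the most counts of these 20, 19 over all libraries against 8404 for COX7C, or 0.226% of the pair. UQCR-11L had 13 counts against 7636 for UQCR-11. ND-51L1 had 9 counts against 943 for ND-51, and COX7AL had 9 against 11019 for COX7A. ATPsynbetaL and COX4L had 8 counts each, ATPsynCF6L, ND-49L and COX7AL2 had 2 each, and the remaining paralogues had none, so that 17 of the 26 untested members were at 0. The exception was ATPsynepsilonL, a copy of the ATP synthase epsilon subunit sun, with 68 counts in all against 7550 for sun. The WT libraries had 0, 3 and 4 counts, the lola[E76] libraries 24, 25 and 0, and the nerfin-1[159] libraries 9, 0 and 3. Its highest counts came from lola[E76] replicates 1 and 2, and the third library of that genotype had none.

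The other 6 untested members are subunits of the standard machinery, and each was listed at 0 in every library. COX1, COX2 and COX3 are encoded in the mitochondrial genome, and all 37 genes of that genome in the table, ribosomal RNAs included, were listed at 0. These zeros therefore cover the whole mitochondrial genome and carry no information on the subunits it encodes. ND-MNLL, ND-B8 and UQCR-14 are nuclear genes that overlap another annotated gene. The overlapping genes Gs1l and CG32576 had 898 and 671 counts over the 9 libraries, and CG45089, which overlaps ND-MNLL, had 0. Whether reads of overlapping genes were left uncounted was not tested, and the labels do not say whether counting used strand. Among the 66 tested members 34 overlap another gene.

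The summed level of the members was highest in lola[E76] clones, by a small margin that is described here without a test. The sum over all members was 9251, 8374 and 8880 CPM in the lola[E76] libraries, where WT had 7473, 7931 and 8160 CPM and nerfin-1[159] had 7707, 7333 and 7974 CPM. All 3 lola[E76] libraries lay above the 6 others, and WT and nerfin-1[159] libraries overlapped. The means of WT, nerfin-1[159] and lola[E76] were 7855 ± 350, 7671 ± 322 and 8835 ± 440 CPM (SD, n = 3 each), a ratio of 1.12 for lola[E76] to WT, 0.977 for nerfin-1[159] to WT and 1.15 for lola[E76] to nerfin-1[159].

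By complex, the lola[E76] to WT ratio of summed levels was 1.12 for complex I, 1.15 for complex II, 1.14 for complex III, 1.11 for complex IV and 1.12 for ATP synthase. Complex III was at 723.1, 728.1 and 761.6 CPM in WT, at 823.5, 866.6 and 840.2 CPM in lola[E76] and at 693.7, 740.4 and 734.9 CPM in nerfin-1[159] libraries. Its lola[E76] libraries lay above all others, as did those of ATP synthase, at 3636, 3270 and 3507 CPM against 2859, 3249 and 3183 CPM in WT and 3004, 2885 and 3114 CPM in nerfin-1[159] clones. For ATP synthase the gap was narrow, since lola[E76] replicate 2 exceeded the highest WT library by less than the SD within either genotype. Complex IV did not separate lola[E76] from WT (2131, 1894 and 2102 CPM against 1760, 1757 and 1985 CPM) and was lowest in nerfin-1[159] clones, at 1658, 1589 and 1721 CPM. Complex I and complex II each had all lola[E76] libraries above all WT libraries, and their nerfin-1[159] libraries overlapped both.

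**Figure D2:**
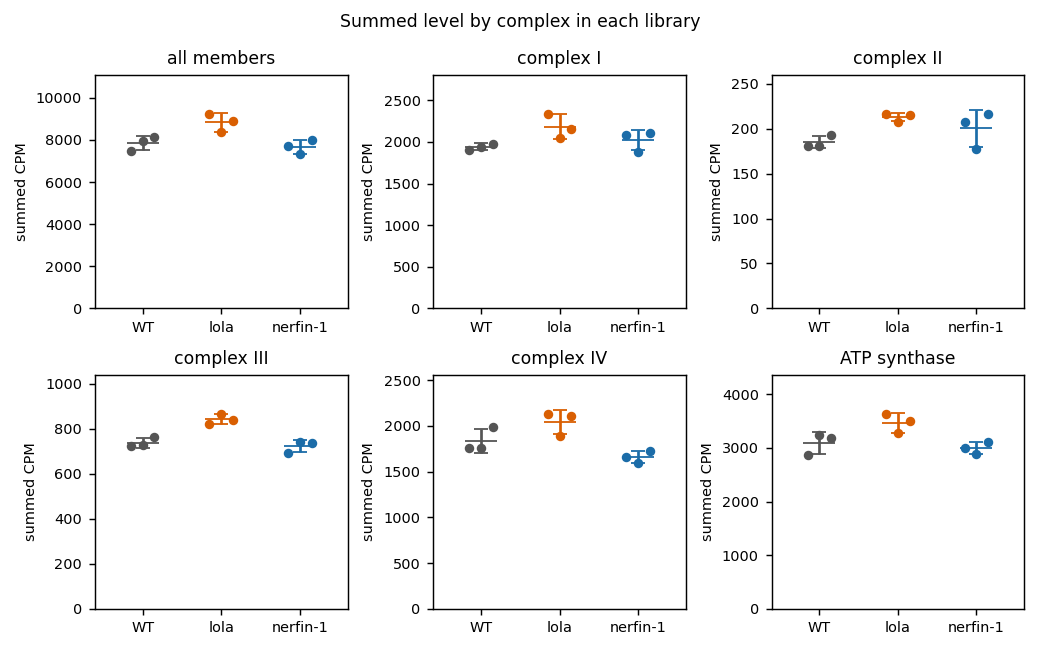
Summed CPM of the members of each complex in each library (points), with the mean (long bar) and SD (whiskers) of the 3 libraries of each genotype; each vertical axis starts at 0. The lola[E76] libraries of all members together lay between 8374 and 9251 CPM, above the 7333 to 8160 CPM of the 6 other libraries, and the differences are small against the level.

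The first comparison asks which subunits differ in lola[E76] clones. In lola[E76] against WT clones, 1 of the 66 tested members passed the test, the complex I core subunit ND-30, and none fell. Across all tested genes 3.58% were higher and 2.91% lower in lola[E76], or 6.50% either way, so the members' share of 1.52% was under the background. The members as a group sat slightly above WT: 51 of 66 had a difference above 0, with a median log2 difference of 0.153, where all tested genes had a median of -0.002 and 49.8% above 0. In 12 members every lola[E76] library was above every WT library, or 18.2% against 12.7% of all tested genes, and in 1 member, ND-ASHI, every one was below, against 12.1% of all tested genes. An unadjusted p under 0.05 was reached by 11 members, all higher, or 16.7%, where 10% of all tested genes were higher and 8.88% lower at that level.

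ND-30 belongs to the arm of complex I that faces the matrix, on the path of electrons from NADH to ubiquinone. It was at 48.1, 58.1 and 58.4 CPM in WT, at 133, 114 and 79.3 CPM in lola[E76] and at 64.0, 74.2 and 80.8 CPM in nerfin-1[159] libraries. All lola[E76] and all nerfin-1[159] libraries lay above all WT libraries, and the lowest lola[E76] library was within the nerfin-1[159] range. In nerfin-1[159] against WT clones the difference was 0.41 on the log2 scale (SE 0.197, edgeR adjusted p = 0.223) and was not called. The rise over WT in lola[E76] clones was 0.99 (SE 0.196, edgeR adjusted p = 0.00358). This rise passed the test with any single library left out (edgeR adjusted p at most 0.0233). Against nerfin-1[159] clones ND-30 differed by 0.58 (SE 0.194; edgeR adjusted p = 0.0516), which missed the threshold here and passed with RLE factors, library size only, no filter on low counts, DESeq2 or without lola[E76] replicate 3 (adjusted p = 0.0118 to 0.048). No annotated gene overlaps ND-30.

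The other nuclear-encoded core subunits of complex I did not pass the test, and those encoded in the mitochondrial genome could not be tested. The 7 core subunits had a median difference of 0.316 and 5 lay above 0, whereas the 25 accessory subunits had a median of 0.125 with 18 above 0. Next to ND-30, the largest positive differences in complex I were those of the accessory subunits ND-B15, at 0.85 (SE 0.338; edgeR adjusted p = 0.162), and ND-B12, at 0.66 (SE 0.238; edgeR adjusted p = 0.114), then of ND-ACP, the mitochondrial acyl carrier protein, at 0.53 (SE 0.171; edgeR adjusted p = 0.0752). ND-B15 was at 49.9 CPM in lola[E76] replicate 1 and at 20.5 and 20.6 CPM in the others, against 14.3, 16.9 and 19.0 CPM in WT, so the difference rested mainly on 1 library and was 0.295 without it. ND-ACP was at 59.4, 70.0 and 77.3 CPM in WT and at 117, 90.9 and 90.5 CPM in lola[E76] libraries, without overlap. At the other end stood ND-18 at -0.61 (SE 0.463; edgeR adjusted p = 0.560), ND-ASHI at -0.33 (SE 0.185; edgeR adjusted p = 0.378) and ND-B16.6 at -0.21 (SE 0.177; edgeR adjusted p = 0.614), accessory subunits of complex I, none of which passed the test.

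The remaining complexes had small positive medians and no member past the threshold. Medians were 0.216 for the 4 members of complex II, 0.191 for the 7 of complex III, 0.123 for the 9 of complex IV and 0.087 for the 13 of ATP synthase. Cyt-c-p was at 50.5, 70.4 and 56.7 CPM in WT and at 102, 90.3 and 55.2 CPM in lola[E76] libraries, which overlap (log2 difference 0.48, SE 0.223; edgeR adjusted p = 0.254). For ATP synthase, blw differed by 0.35 (SE 0.118; edgeR adjusted p = 0.0867) and ATPsynC by 0.23 (SE 0.106; edgeR adjusted p = 0.239). In 58 of the 66 members the 95% interval of the difference lay within 2-fold either way, and in 39 within 1.5-fold. The largest fitted value, 2.88 for ATPsynepsilonL (SE 1.52; edgeR adjusted p = 0.328), came from the 2 libraries named above.

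Markers of other cells moved with genotype too. The 7 muscle markers summed to 118 to 220.3 CPM in lola[E76] libraries, against 3.512 to 9.996 CPM in WT and 6.93 to 8.21 CPM in nerfin-1[159], and 4 of the 6 tested (Mlc2, wupA, up and Tm2) rose in lola[E76], while Mhc, which defines muscle, was at 2.66 CPM or less in every library and at 0 in lola[E76] replicate 3. The 5 neuroblast markers summed to 240.2 to 310 CPM in lola[E76] against 74.6 to 152 CPM in WT libraries, with 3 higher, and the 5 neuronal markers to 2785 to 3064 CPM against 3562 to 4293 CPM, with 2 lower. The 6 glial markers summed to 157 to 221 CPM in lola[E76] against 125 to 141 CPM in WT libraries, with 1 (wrapper) higher. Their part in the differences of the members was not tested. In such sorted bulk samples, fewer cells of a type and less RNA per cell cannot be told apart.

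The second comparison asks the same of nerfin-1. In nerfin-1[159] against WT clones, 3 members fell, ATPsynO, ATPsynE and COX7C, and 1 rose, ND-MLRQ. This was 4.55% lower and 1.52% higher, where 6.27% of all tested genes were lower and 5.66% higher (11.9% either way). The median log2 difference over the members was 0.008, with 34 of 66 above 0 (all tested genes 0.002), and the 95% interval lay within 2-fold for 59 members and within 1.5-fold for 32. Every nerfin-1[159] library was below every WT library in 10 members, or 15.2% against 15.6% of all tested genes, and above in 6, or 9.09% against 14.9%. WT libraries serve in both this comparison and the one above, so these comparisons are not independent.

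The 3 members called lower, 4.55% against 6.27% of all tested genes, were 2 of ATP synthase and 1 of complex IV. The most negative difference of a member was that of ND-51 of complex I, which was not called and is given below. ATPsynO, the stalk subunit that joins the catalytic head to the membrane part, was at 149.9, 146 and 162 CPM in WT, at 185, 151 and 151 CPM in lola[E76] and at 101, 106 and 114 CPM in nerfin-1[159] libraries. The nerfin-1[159] libraries lay below the 6 others, and WT and lola[E76] overlapped. ATPsynO fell by 0.51 on the log2 scale (SE 0.140; edgeR adjusted p = 0.0204). ATPsynE, a membrane subunit known for its part in dimers of the enzyme, was at 110, 114 and 104 CPM in WT, at 102, 112 and 96.3 CPM in lola[E76] and at 74.8, 86.5 and 71.2 CPM in nerfin-1[159] libraries, again with the nerfin-1[159] libraries below all others. It fell by 0.50 (SE 0.154; edgeR adjusted p = 0.0407). COX7C, a small nuclear-encoded subunit of complex IV, was at 235, 231 and 237 CPM in WT, at 263, 233 and 244 CPM in lola[E76] and at 169, 149 and 192 CPM in nerfin-1[159] libraries, with the same order. It fell by 0.46 (SE 0.127; edgeR adjusted p = 0.0204).

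The 8 subunits of the membrane part and the peripheral stalk of ATP synthase had a median difference of -0.304 in nerfin-1[159] against WT clones. Of these, 1 lay above 0 and 2 were called lower, where 6.27% of all tested genes were called lower. The 4 subunits of the catalytic head and central stalk had a median of -0.024. This split, like that of complex I into core and accessory subunits, was not planned, and no test between the parts was made. Of the 8, the subunit above 0 was ATPsynC, at 0.10 (SE 0.107; edgeR adjusted p = 0.683). ATPsynCF6, another subunit of the peripheral stalk, differed by -0.49 (SE 0.209; edgeR adjusted p = 0.155), and by -0.764 without nerfin-1[159] replicate 3, where it passed (edgeR adjusted p = 0.0311). The medians of the complexes were 0.070 for complex I, 0.121 for complex II, 0.030 for complex III, -0.130 for complex IV and -0.120 for ATP synthase.

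In complex I the values went both ways. ND-MLRQ, whose mammalian counterpart is now counted with complex IV, was at 130.5, 134 and 158 CPM in WT, at 165, 172 and 175 CPM in lola[E76] and at 195, 168 and 204 CPM in nerfin-1[159] libraries. Both mutant groups lay above all WT libraries and overlapped each other. The rise in nerfin-1[159] clones was 0.42 (SE 0.135; edgeR adjusted p = 0.0483), close to the threshold, and the difference in lola[E76] clones was 0.27 (SE 0.135; edgeR adjusted p = 0.284). ND-51, the core subunit that binds NADH, had the most negative difference at -0.84 (SE 0.297; edgeR adjusted p = 0.0767) and did not pass, although its nerfin-1[159] libraries lay below all WT libraries; without nerfin-1[159] replicate 3 it was at -1.12 and passed (edgeR adjusted p = 0.0416). ND-B15 stood at 0.49 (SE 0.340; edgeR adjusted p = 0.454) and ATPsynepsilonL at 1.15 (SE 1.55; edgeR adjusted p = 0.761), neither past the threshold.

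These calls in nerfin-1[159] against WT were often lost when 1 library was left out. Calls over all tested genes fell as well, from 889 to 644, 593 and 663 without WT replicate 1, 2 and 3. Without nerfin-1[159] replicate 1, 2 and 3 they were 820, 653 and 603. Of the 4 calls, none was left without WT replicate 3, 1 without WT replicate 1, WT replicate 2 or nerfin-1[159] replicate 1, and 2 without nerfin-1[159] replicate 2. With single libraries left out the adjusted p reached 0.097 for ATPsynO, 0.149 for ATPsynE, 0.1 for COX7C and 0.191 for ND-MLRQ, which was also lost without lola[E76] replicate 2 or 3 (ATPsynE and ND-MLRQ also without nerfin-1[159] replicate 3). The differences of these 4 genes kept their sign throughout. Among markers of other cells, the 5 of neuroblasts summed to 415 to 465 CPM in nerfin-1[159] libraries, and all 5 rose over WT. The neuronal markers summed to 2822 to 3219 CPM, with 3 of 5 lower and elav not called. The 6 haemocyte and fat body markers summed to 194 to 271 CPM, where WT had 3.78 to 12.3 CPM and lola[E76] had 23.5 to 54.0 CPM. Most of the nerfin-1[159] sum was Col4a1, at 188, 254 and 266 CPM, which was called higher. The other tested marker, vkg, was not called (log2 difference -0.23, SE 1.14, edgeR adjusted p = 0.950). Hml was at 2.265 CPM or less in nerfin-1[159] libraries, and NimC1 was at 0 in all libraries. The part of these markers was not tested.

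**Figure D3:**
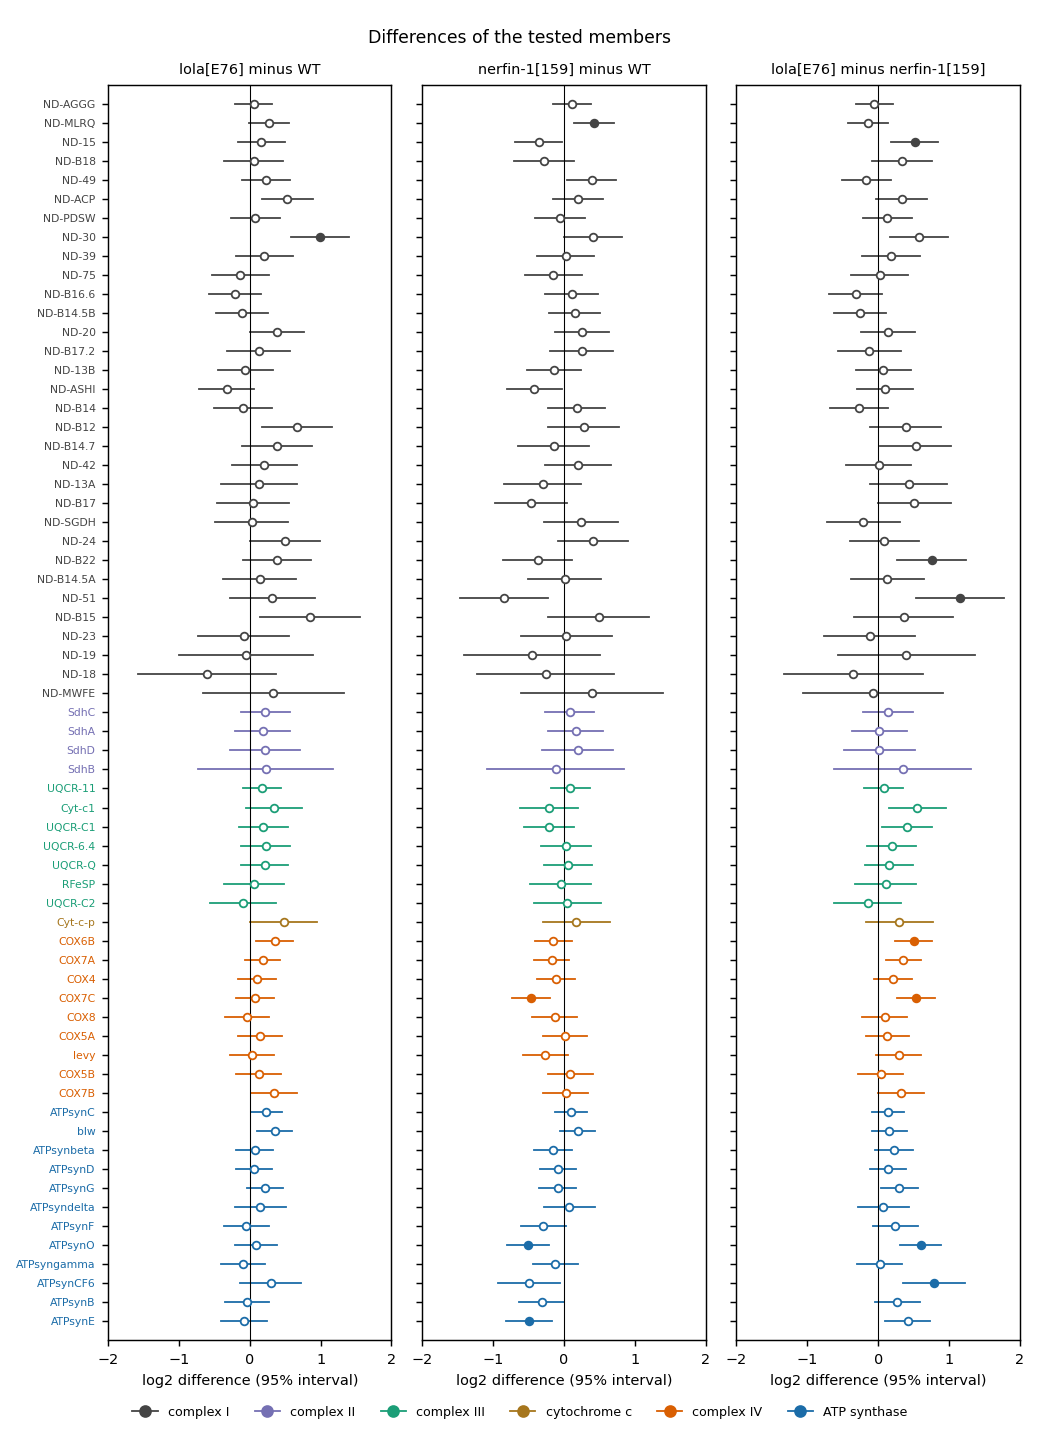
Log2 difference (point) and 95% interval (line) of the tested members in the 3 comparisons, grouped and coloured by complex and ordered by level within it; filled points passed an adjusted p of 0.05, and ATPsynepsilonL, whose interval is wider than the axis, is left out. Filled points number 1 in the left panel, 4 in the middle and 7 on the right, where all complex IV and ATP synthase points lie right of 0.

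The third comparison sets the mutants against each other, and it gave the most calls. In lola[E76] against nerfin-1[159] clones, 7 members were higher and none lower: ATPsynO and ATPsynCF6 of ATP synthase, COX7C and COX6B of complex IV, and ND-51, ND-B22 and ND-15 of complex I. This was 10.6% of the 66, where 8.58% of all tested genes were higher and 6.94% lower (15.5% either way). An unadjusted p under 0.05 was reached by 14 members, all higher in lola[E76], or 21.2%, where 14.3% of all tested genes were higher and 12.7% lower at that level. The median log2 difference was 0.156 with 54 members above 0 (all tested genes -0.005), and all 9 members of complex IV and all 13 of ATP synthase lay above 0, with medians of 0.293 and 0.245. Complex I had a median of 0.112 with 21 of 32 above 0, complex II 0.079 and complex III 0.152. Every lola[E76] library was above every nerfin-1[159] library in 11 members, or 16.7% against 15.4% of all tested genes, and below in 1, against 14.9%.

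In ATP synthase, ATPsynO differed by 0.60 (SE 0.140; edgeR adjusted p = 0.00545), with the library values given above. ATPsynCF6, of the stalk that holds the head still, was at 87.8, 127 and 119 CPM in WT, at 152, 106 and 152 CPM in lola[E76] and at 66.0, 65.4 and 106 CPM in nerfin-1[159] libraries. The lowest lola[E76] library was just below the highest nerfin-1[159] library, so these groups overlap. The difference was 0.79 (SE 0.209; edgeR adjusted p = 0.0127). The 8 subunits of the membrane part and peripheral stalk were all above 0, with a median of 0.286, and the 4 of the head and central stalk had a median of 0.117.

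In complex IV, COX7C differed by 0.54 (SE 0.127; edgeR adjusted p = 0.00593). COX6B, which sits on the side facing the intermembrane space, was at 279, 291 and 352 CPM in WT, at 434, 347 and 396 CPM in lola[E76] and at 262, 281 and 289.5 CPM in nerfin-1[159] libraries. The lola[E76] libraries lay above all nerfin-1[159] libraries, and WT overlapped both. The difference was 0.50 (SE 0.126; edgeR adjusted p = 0.00893). COX7A, at 0.36 (SE 0.119; edgeR adjusted p = 0.0501), ended just outside the threshold.

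In complex I, ND-51 had the largest difference that passed. It was at 23.8, 30.6 and 23.1 CPM in WT, at 38.2, 28.2 and 30.2 CPM in lola[E76] and at 12.7, 11.03 and 19.5 CPM in nerfin-1[159] libraries, and the latter lay below all others. The difference was 1.16 (SE 0.297; edgeR adjusted p = 0.0102). ND-B22, an accessory subunit of the membrane arm, was at 28.9, 34.4 and 38.7 CPM in WT, at 48.9, 39.4 and 44.9 CPM in lola[E76] and at 25.8, 24.3 and 28.8 CPM in nerfin-1[159] libraries. The mutants were well apart, and WT lay between them with hardly any gap on either side. Against WT neither lola[E76] nor nerfin-1[159] was called (edgeR adjusted p = 0.403 and 0.388). Between the mutants the difference was 0.76 (SE 0.231; edgeR adjusted p = 0.0309). ND-15, another accessory subunit, was at 116, 95.4 and 96.6 CPM in WT, at 120.3, 111 and 114 CPM in lola[E76] and at 68.8, 82.0 and 89.8 CPM in nerfin-1[159] libraries, with the mutants apart and WT overlapping lola[E76]. The difference was 0.52 (SE 0.159; edgeR adjusted p = 0.0327).

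At the low end, ND-18 stood at -0.35 (SE 0.468; edgeR adjusted p = 0.702), ND-B16.6 at -0.32 (SE 0.177; edgeR adjusted p = 0.275) and ND-B14 at -0.28 (SE 0.195; edgeR adjusted p = 0.412), none past the threshold. The 95% interval lay within 2-fold for 55 members and within 1.5-fold for 30. ATPsynO, COX7C and COX6B passed with any single library left out (adjusted p at most 0.0266, 0.0351 and 0.0402). ND-51 missed the threshold without nerfin-1[159] replicate 2 (adjusted p = 0.0537) and in no other such fit. ATPsynCF6 missed it without lola[E76] replicate 3 or nerfin-1[159] replicate 1 or 2 (adjusted p up to 0.0679), and ND-B22 without any nerfin-1[159] library or lola[E76] replicate 1 or 3 (up to 0.0941). ND-15 missed it without WT replicate 3, any lola[E76] library, or nerfin-1[159] replicate 1 or 2 (up to 0.135). Several of these genes overlap others in the annotation: COX6B overlaps CG18809 (1376 counts over all libraries), ND-B22 overlaps CG31855 (1456 counts), COX7C overlaps oys (986 counts), and ND-15 spans 14 other genes. ND-30, ATPsynE and ATPsynCF6 overlap none.

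**Figure D4:**
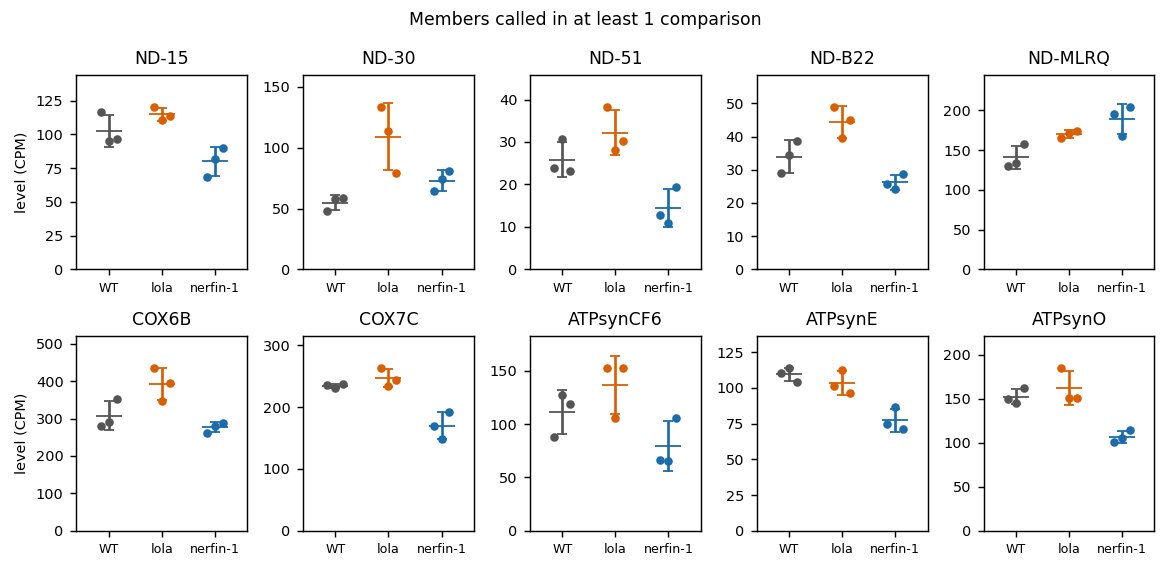
Level in CPM in each library (points) of the 10 members that passed the test in at least 1 comparison, with the mean (long bar) and SD (whiskers) of the 3 libraries of each genotype; each vertical axis starts at 0. In ATPsynO, ATPsynE, COX7C, ND-51, ND-15 and ND-B22 the nerfin-1[159] libraries lie below the 6 others, in ND-B22 by a very narrow gap. In ND-30, ND-MLRQ and ND-B22 the lola[E76] libraries lie above WT, and in ND-30 and ND-MLRQ the nerfin-1[159] libraries do too.

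The clones are homozygous for the chromosome arm that carries the mutated gene, 2R for lola and 3L for nerfin-1, so variants linked on that arm cannot be told apart from loss of the gene. By column name the WT libraries share the recombination site of lola[E76]. The nerfin-1[159] clones may therefore differ from WT and from lola[E76] clones on 2R as well as on 3L. In nerfin-1[159] against WT, ND-MLRQ is the called member on 3L and COX7C the called member on 2R. COX7C was also called in lola[E76] against nerfin-1[159], where no called member is on 3L. ND-30, called in lola[E76] against WT, is on 3L and not on the arm of lola. Without the 13 tested members on 2R the median in lola[E76] against WT was 0.140. Without the 14 on 3L the median in nerfin-1[159] against WT was -0.068, with the members on 2R still included.

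Related mitochondrial genes outside the symbol rule were compared in the same fit. Counts called in this and the next lists stand beside 6.50%, 11.9% and 15.5% of all tested genes called in the 3 comparisons. Of 7 further subunits, 3 could be tested. The complex IV subunit cype was higher in lola[E76] than in nerfin-1[159] clones by 0.48 (SE 0.132; edgeR adjusted p = 0.0155), at 342, 325 and 373 CPM against 250.0, 243 and 251 CPM. Ox, a small subunit of complex III, fell in nerfin-1[159] clones by 1.01 (SE 0.238; edgeR adjusted p = 0.00746), with 18.7, 22.8 and 28.8 CPM against 49.2, 44.4 and 48.5 CPM in WT libraries and 29.8, 31.9 and 28.4 CPM in lola[E76]. Sun, the ATP synthase epsilon subunit, was called in no comparison. None of the 9 tested assembly factors, proteins that build the complexes, was called by edgeR in any of the 3 comparisons.

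The next list held 15 genes of the tricarboxylic acid cycle, which feeds the chain with electrons, and of reactions beside it: the pyruvate dehydrogenase genes Pdha, Pdhb and muc, and Idh, an NADP-dependent isocitrate dehydrogenase, are not part of the cycle itself. Idh3g rose by 0.98 (SE 0.246; edgeR adjusted p = 0.0186) and mAcon1 fell by 0.85 (SE 0.210; edgeR adjusted p = 0.0176) in lola[E76] against WT clones. In nerfin-1[159] against WT clones Idh fell by 0.56 (SE 0.176; edgeR adjusted p = 0.0445) and Mdh2 by 0.59 (SE 0.185; edgeR adjusted p = 0.0431). Fum1 was higher in lola[E76] than in nerfin-1[159] clones by 1.10 (SE 0.335; edgeR adjusted p = 0.0304). The list's medians were 0.167, -0.009 and 0.211 in the 3 comparisons.

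Of 6 tested carriers, sesB, the ADP/ATP translocase that exports the ATP made, fell in nerfin-1[159] clones by 0.42 (SE 0.0965; edgeR adjusted p = 0.00643), with 780.1, 795 and 863 CPM against 1052, 1112 and 1092 CPM in WT libraries, and lola[E76] libraries at 1222, 1049 and 1130 CPM. It was higher in lola[E76] than in nerfin-1[159] clones by 0.48 (SE 0.0965; edgeR adjusted p = 0.00156). Porin, the channel of the outer membrane, was higher in the same comparison by 0.38 (SE 0.0931; edgeR adjusted p = 0.00720), at 1269, 1272 and 1222 CPM against 898, 952 and 1038 CPM. Among 6 tested genes of mitochondrial DNA upkeep and biogenesis, 1 was called in lola[E76] against nerfin-1[159], where 15.5% of all tested genes were called. None was called in the other comparisons. The called gene was ewg, the fly homologue of nuclear respiratory factor 1, with a log2 difference of -0.84 (SE 0.148, edgeR adjusted p = 0.000504). It was at 193, 198 and 138 CPM in lola[E76] against 330.1, 322 and 292 CPM in nerfin-1[159] libraries. The mitochondrial transcription factor TFAM stayed between 60.3 and 88.2 CPM in all libraries and was not called.

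Lola.N contact was described from the authors' peaks, 4676 in replicate N1 and 4544 in N2, with 3342 intervals in both. Of the 89 members on nuclear chromosomes, 20 had such a shared interval over the gene or within 1 kb, or 22.5% (95% Wilson interval 15.0% to 32.2%, counting error only), where 19.5% of all genes did. With overlap of the gene itself required the shares were 12.4% of members and 13.8% of all genes, and within 5 kb they were 47.2% and 35.2%, so the order of members and all genes depended on the distance. Among tested genes the share was 25.8% for members (17 of 66) and 28.3% overall. The 20 comprised blw, ATPsynD, ATPsynG and ATPsynO of ATP synthase, COX6B, COX8 and COX7AL2 of complex IV, RFeSP, UQCR-C1 and UQCR-6.4L of complex III, SdhA and SdhC of complex II, and ND-15, ND-23, ND-39, ND-51, ND-ASHI, ND-B14.7, ND-B18 and ND-MNLL of complex I. Of the called members, ATPsynO, COX6B, ND-15 and ND-51 were among them. ND-30, ND-B22, ND-MLRQ, COX7C, ATPsynCF6 and ATPsynE were not. Only 1 member, ND-30, was called in lola[E76] against WT, so calls and contact cannot be compared there. The share with contact among all called genes was not tested. Members are shorter than the average gene, with a median length of 1100 bp against 1728 bp for all genes, and the part of length in these shares was not tested.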

How the data were processed

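RNA was measured by QuantSeq in 9 libraries of 3 genotypes. The authors deposited raw counts per gene. Subread, featureCounts and limma are listed, without versions, in the submitters' processing notes; for build, annotation and strand setting nothing is given in the sources used here. For Targeted DamID the authors deposited peaks of each replicate (FDR 0.01, per the file names) with a score whose scale is not given and which was not used.

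The filterByExpr function of edgeR (version 4.0.16, under R 4.3.3) kept 7451 genes, and TMM gave the effective library sizes behind all CPM. Quasi-likelihood tests with 1 mean per genotype over all 9 libraries were two-sided, with Benjamini-Hochberg adjustment over all tested genes and a threshold of 0.05, and intervals are at 95%. The test was checked on simulated counts. The 33 genes with a FlyBase ID but no symbol (0.00704% to 0.00852% of counts) stayed in the fit. Peaks were intersected and compared with gene positions of a Release 6 gene table. Moving the peaks by 5 kb lowered the genes with an end within 1 kb of one from 2778 to 2379 or 2356, and no coordinates are printed.

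The members and all lists were chosen with earlier results of these data known. Genes were named by rule: every called member, the highest and lowest of each complex, the 3 largest differences each way in each comparison, paralogue pairs, and called genes of other lists. ND-ACP, ND-B12, blw and COX7A were added after their values were seen. Alternatives were DESeq2 1.42.0, limma voom (limma 3.58.1), other scalings, no filter, only the groups compared, a replicate block, and each library left out. Dam-only libraries and gene sequences were not used here.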

Additional observations from a re-analysis of the deposited data

Results flagged for a closer look

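In 7 members the effect of lola[E76] against WT differed from that of nerfin-1[159] against WT, by the direct test of lola[E76] against nerfin-1[159], in which the shared WT libraries cancel (edgeR adjusted p given above). These are 10.6% of the 66 tested members, where 15.5% of all tested genes were called either way and 8.58% higher. The log2 differences of the effects were 0.60 for ATPsynO, 0.54 for COX7C, 0.50 for COX6B, 1.16 for ND-51, 0.79 for ATPsynCF6, 0.76 for ND-B22 and 0.52 for ND-15. All 7 were higher in lola[E76], and ATPsynCF6, ND-B22 and ND-15 each missed the threshold without any of several single libraries, and ND-51 without nerfin-1[159] replicate 2. Against WT, only ATPsynO and COX7C among them were called in nerfin-1[159], and none in lola[E76].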

How the results depend on the processing

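Members called in lola[E76] against WT numbered 1, with 3 by the DESeq2 Wald test and 1 to 2 with a library left out. Calls over all 7451 tested genes were 484, with 673 by DESeq2 and 315 to 497 with a library left out. In nerfin-1[159] against WT 4 became 2 with no filter on low counts and 0 to 4 with a library left out. Over all genes 889 became 1017 of 12211 with no filter and 593 to 1008 with a library left out. Without nerfin-1[159] replicate 3 ATPsynCF6 and ND-51 were gained while ATPsynE and ND-MLRQ were lost. In lola[E76] against nerfin-1[159] 7 became 11 by DESeq2 and 4 to 7 with a library left out (4 without nerfin-1[159] replicate 2). Over all genes 1156 became 1371 by DESeq2 and 889 to 1135 with a library left out (960 without nerfin-1[159] replicate 2). The median difference in nerfin-1[159] against WT was -0.068 without members on 3L and -0.071 to 0.042 with a library left out; the other medians stayed positive, at 0.129 to 0.214 and 0.130 to 0.215. No called difference reversed. Among uncalled ones ATPsynO in lola[E76] against WT was -0.014 without lola[E76] replicate 1 (range to 0.133), ATPsynepsilonL in nerfin-1[159] against WT -0.263 without nerfin-1[159] replicate 1 (range to 1.738), and ND-18 in lola[E76] against nerfin-1[159] 0.175 without nerfin-1[159] replicate 3 (range from -0.77). Lola.N contact was found for 12.4% of members and 13.8% of all genes at 0 kb, 47.2% and 35.2% at 5 kb, and 36.0% and 32.5% with peaks of either replicate. The causes were not tested.

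With the replicate number as a block, 1, 3 and 7 members were called in the 3 comparisons, and 431, 820 and 1080 of all 7451 tested genes. ND-MLRQ (nerfin-1[159] against WT) and ND-15 (lola[E76] against nerfin-1[159]) were lost. Cyt-c1 was gained in lola[E76] against nerfin-1[159], at 0.56 (edgeR adjusted p = 0.0385), where the main fit gave 0.55 (edgeR adjusted p = 0.0618). It was also gained with library size only, no filter, DESeq2 and limma voom, and without lola[E76] replicate 1 or nerfin-1[159] replicate 2. The replicate numbers do not pair the samples: correlations of same-numbered libraries were -0.0575 to 0.0191, and in 1 of 9 libraries the best match carried the same number. ND-MLRQ was also lost with library size only, no filter and limma voom, and ATPsynE (nerfin-1[159] against WT) and ND-B22 with no filter. Other scalings moved the median of all genes by at most 0.042. The intervals of ND-18, SdhB and ND-MWFE were the widest of the standard subunits, and the part of depth in them was not tested.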
